A study of Mus musculus with 16 samples.

Results

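The MDSC effector genes are 9 of the 32285 genes counted in single cells of BM and mammary tumors: Arg2, Nos2, Ptgs2, Cd84, Wfdc17, Acod1, Tgfb1, Clec4e and Clec4d. They were taken by their symbols, each of which named 1 gene, by a rule that uses no measured value, although earlier results of these data were known when the genes were chosen. They were followed in 6 libraries of CD45+ BM cells and 4 libraries of 2208L tumors, and 6 libraries of c-Kit+ BM cells of the same series were not used here. 2208L is a Trp53-null mammary tumor passed on by transplantation into BALB/c mice, so its immune cells are those of the host. The BM groups had 2 libraries per group. They were non–tumor-bearing WT mice, which the study describes as untreated, and 2208L tumor–bearing mice given either vehicle or IACS-70654. IACS-70654 is an oral inhibitor of the CBP/P300 bromodomain and was dosed 3 days on and 2 days off. The 4 tumor libraries were 1 each of mice given vehicle, IACS-70654, the antibody anti–PD-1, and IACS-70654 combined with that antibody. The labels give 7 days of treatment, although the study's own text describes a slightly shorter course for the BM mice. Each sample held pooled cells of 3 mice, and nothing states that the 2 BM libraries of a group came from separate mice. P-values therefore measure the spread between these libraries, which may be technical.

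Myeloid-derived suppressor cells (MDSCs) are neutrophil-like and monocyte-like cells that accumulate in tumor-bearing hosts and restrain T cells. Several of their tools are enzymes: arginases such as Arg2 consume arginine, Nos2 turns it into nitric oxide, Ptgs2 (COX-2) starts prostaglandin synthesis, and Acod1 makes itaconate. Tgfb1 is a secreted cytokine that restrains T cells, and Wfdc17 is a small secreted protein with a WAP domain. Cd84 is a receptor of the SLAM family used as a surface marker of MDSCs, and Clec4e (Mincle) and Clec4d (MCL) are C-type lectin receptors that sense microbes and dying cells. CBP and P300 acetylate histones at enhancers and bind acetylated lysine through their bromodomains. Only RNA was measured here, not suppression, so the word MDSC stands for what is known of the genes and not for a property shown of these cells.

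In GRCm38 the genes lie at chr12:79130777-79156301 (Arg2), chr11:78920787-78960254 (Nos2), chr1:150100031-150108227 (Ptgs2), chr1:171839697-171890718 (Cd84), chr11:83703991-83706268 (Wfdc17), chr14:103046977-103056573 (Acod1), chr7:25687002-25705077 (Tgfb1), chr6:123281789-123289870 (Clec4e) and chr6:123262111-123275265 (Clec4d). Clec4e is on the minus strand and the other 8 genes are on the plus strand, and Clec4d and Clec4e are neighbors 6523 bases apart. RefSeq promoter windows (GRCm38.p6) matched 7 of the 9 genes, all but Arg2 and Nos2. Shown here are the windows of 4 genes that were lower with IACS-70654 in mature neutrophils, followed by that of Wfdc17, which was higher with the tumor. Each window holds up to 250 bases before the RefSeq start, read 5′ to 3′ on the strand of the gene, and 35 bases of Acod1 and 65 bases of Wfdc17 that lie inside the annotated gene were left out. Capitals mark matches to the letters of a motif.
Acod1, chr14:103046762-103046976, plus strand: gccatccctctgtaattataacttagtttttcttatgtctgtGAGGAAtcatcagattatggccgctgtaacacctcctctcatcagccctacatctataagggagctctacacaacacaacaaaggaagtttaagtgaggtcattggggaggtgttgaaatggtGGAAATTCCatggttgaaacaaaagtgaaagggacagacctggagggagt
Clec4e, chr6:123289872-123290121, minus strand: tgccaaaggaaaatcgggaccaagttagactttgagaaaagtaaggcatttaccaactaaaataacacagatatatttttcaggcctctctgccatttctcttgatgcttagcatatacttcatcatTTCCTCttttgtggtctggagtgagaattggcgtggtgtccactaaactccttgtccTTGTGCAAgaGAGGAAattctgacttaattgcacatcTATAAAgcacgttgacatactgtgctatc
Clec4d, chr6:123261857-123262106, plus strand: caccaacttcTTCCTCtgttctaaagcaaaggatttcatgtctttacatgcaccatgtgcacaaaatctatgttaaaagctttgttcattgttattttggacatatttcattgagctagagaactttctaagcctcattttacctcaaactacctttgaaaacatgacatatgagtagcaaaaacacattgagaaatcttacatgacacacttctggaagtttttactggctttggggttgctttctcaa
Cd84, chr1:171839447-171839696, plus strand: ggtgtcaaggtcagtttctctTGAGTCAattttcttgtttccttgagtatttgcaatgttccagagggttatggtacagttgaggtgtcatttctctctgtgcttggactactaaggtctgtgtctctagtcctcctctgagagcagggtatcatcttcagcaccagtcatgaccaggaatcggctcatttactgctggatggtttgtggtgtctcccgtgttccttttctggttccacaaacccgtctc
Wfdc17, chr11:83703806-83703990, plus strand: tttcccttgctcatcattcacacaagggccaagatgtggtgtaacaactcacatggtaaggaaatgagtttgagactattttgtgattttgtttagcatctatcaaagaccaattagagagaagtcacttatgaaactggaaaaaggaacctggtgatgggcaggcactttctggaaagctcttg

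The letters searched on both strands were TTGCNNAA for C/EBP factors, TGANTCA for AP-1, GGANTTTCC for NF-kB, GAGGAA for PU.1 and TATAAA for the TATA box, and no matches overlapped each other. These letters occur in 9.56%, 6.75%, 1.07%, 23.3% and 12.4% of 32851 RefSeq windows of this length. The NF-kB letters were found in Acod1 only, 85 bases before its start, and PU.1 letters lay 208 bases before it. Clec4e held C/EBP letters 66 bases before its start, PU.1 letters at 123 and 56 bases, and TATA letters at 29 bases. Clec4d held PU.1 letters 240 bases before its start, and Cd84 held AP-1 letters at 229 bases. Ptgs2 had C/EBP letters 69 bases and PU.1 letters 247 bases before its start, and Tgfb1 had none of the 5 motifs. In the parts left out, Acod1 had TATA letters 28 bases and Wfdc17 PU.1 letters 39 bases before the RefSeq start. A match is a description of the sequence, not evidence of binding.

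BM cells were grouped by clustering without the 9 genes, and clusters were named from marker genes. The names pro/preNeu (dividing precursors), immature, mature and Il1b-high neutrophils, monocytes and B cells stand for cells that express these markers. A neutrophil cluster led by Mmp8, Ltf and Ly6g, between immature and mature cells, stayed unnamed. Mature neutrophils were the most numerous class, with 1367 to 2567 cells per library, against 194 to 520 Il1b-high neutrophils and 276 to 660 monocytes. CD45+ libraries held 27816638 to 54510172 UMIs in all and tumor libraries 15590289 to 43594797, and no barcode was shared between 2 libraries. UMIs of a gene were summed over a class in a library and are given as CPM, counts scaled to 1e6 UMIs of that class. Neutrophil stages were clustered after integration over libraries. Before it, treated cells lay largely apart: a cluster led by Stfa3 and Cstdc6 held 907 and 1163 cells of the IACS-70654 libraries against 63 and 65 of the vehicle libraries, and one led by Ifitm1 and Stfa2 869 and 1040 against 63 and 61. The median UMIs of mature neutrophils were 2877 and 2913 in WT, 3738 and 3736 under vehicle, and 4741 and 4712 under IACS-70654, so depth moved with the groups, and its part in the changes was not tested beyond thinning cells to 1000 UMIs.

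Most of the genes belonged to the late stages of the neutrophil lineage. In CPM, the level in Il1b-high neutrophils was the highest of the 6 myeloid classes in each of the 6 libraries for Arg2, Ptgs2, Cd84, Wfdc17, Acod1, Clec4e and Clec4d. That is 7 of the 9 genes, and 6 with cells thinned to 1000 UMIs. Il1b-high cells held few UMIs, and per cell the order differed. With vehicle, mature cells held 1.68 to 1.71 Clec4e UMIs against 1.07 to 1.08 in Il1b-high cells, and 14.9 to 15.5 Wfdc17 UMIs against 8.48 to 8.84. Arg2, Cd84 and Clec4d were also higher per cell in mature cells, while Ptgs2 and Acod1 were higher in Il1b-high cells. Arg2 had a median over libraries of 766 CPM in Il1b-high and 466 CPM in mature neutrophils, against 120 in the unnamed cluster, 35.5 in immature cells, 25.9 in monocytes and 12.2 in pro/preNeu. Libraries of Il1b-high and mature neutrophils did not overlap for Arg2, Ptgs2, Cd84 and Clec4d, and overlapped for Wfdc17, Acod1 and Clec4e, which also varied with the group. Ptgs2 was largely restricted to Il1b-high cells, at 113 to 157 CPM there against 15.95 to 27.6 CPM in mature neutrophils and at most 5.97 CPM in each of the other 4 myeloid classes. The order is a description, since the classes were made from the same cells.

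Clec4d stood at 696 to 1053 CPM in Il1b-high and 353 to 651 CPM in mature neutrophils, and at 56.4 CPM or less elsewhere among the 6 classes. Its neighbor Clec4e rose earlier along the lineage, with medians of 21.4 CPM in pro/preNeu, 69.2 in immature cells, 153 in the unnamed cluster, 309 in mature and 349 in Il1b-high neutrophils. Cd84 had medians of 838 CPM in Il1b-high and 526 CPM in mature neutrophils and 130.2 CPM in the unnamed cluster, and it was 86.5 CPM in monocytes, where the range met that of immature cells. Acod1 had medians of 122 CPM in Il1b-high and 52.6 CPM in mature neutrophils and between 2.12 and 6.26 CPM in the other classes.

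Tgfb1 and Nos2 did not follow this order. Among the 6 classes Tgfb1 was highest in monocytes, at a median of 193 CPM with a range of 182 to 210, above the 83.5 to 122 CPM of Il1b-high neutrophils in each library. Pro/preNeu followed at a median of 70.9 CPM, and immature, mature and unnamed neutrophils, at 39.1, 35.6 and 34.0 CPM, overlapped each other. Outside these classes, B cells had 175 to 199 CPM of Tgfb1, and basophils and mast cells, with 31 to 91 cells per library, had 169.5 to 288 CPM. Nos2 was close to the limit of detection: mature neutrophils had the highest median, 2.91 CPM, but the libraries overlapped with those of each class that followed. Wfdc17 depended on the group, since in WT mice monocytes, at 423 and 420 CPM, were above mature neutrophils, at 294 and 269.9 CPM, while in tumor-bearing mice mature neutrophils were above monocytes in all 4 libraries.

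**Figure D1:**
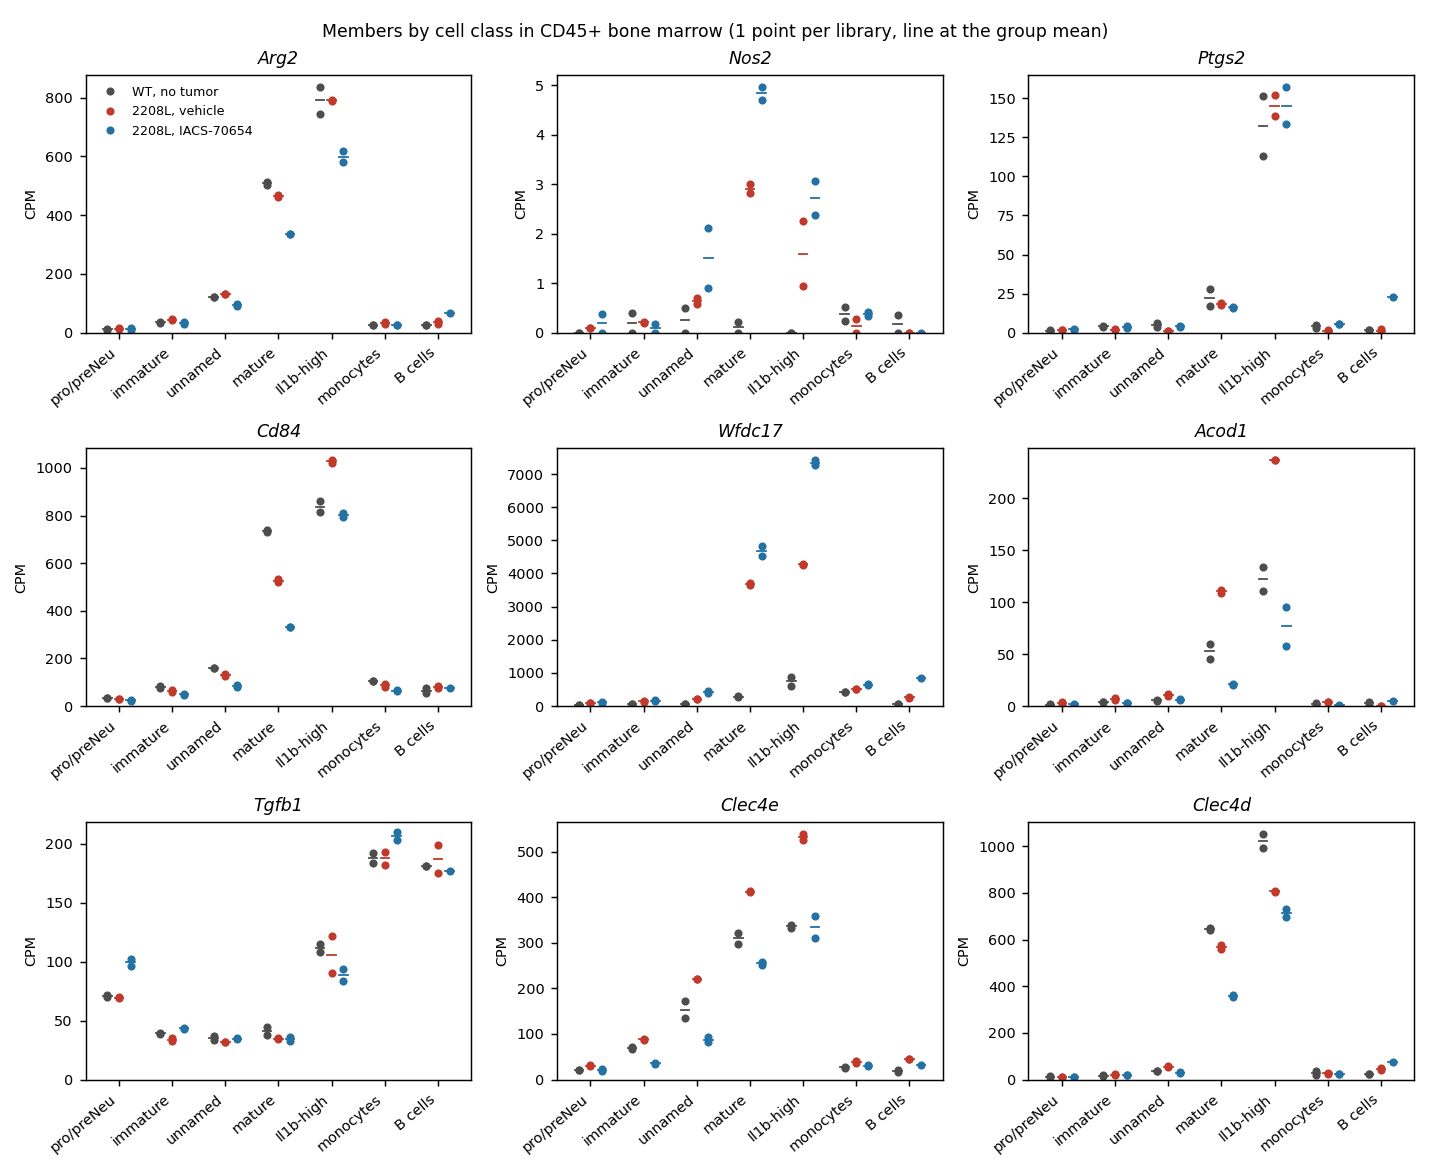
Level of each of the 9 genes (y axis, CPM) by cell class (x axis) in CD45+ BM, with 1 point per library, a line at the group mean and colors for WT, vehicle and IACS-70654; B cells have 1 IACS-70654 library because the other had 16 cells. Levels of 7 genes peak in Il1b-high neutrophils, and among the classes plotted Tgfb1 is highest in monocytes and B cells.

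Free RNA of abundant neutrophils can put UMIs into droplets of other cells, and B cells, which should lack most of these genes, serve as a background level. Each sample carried mainly its own CellPlex sample tag and no barcode was shared, so samples may have been captured together. Free RNA would then be common to the groups, and what set the B cell level of each group was not tested. B cells had 0.302 and 0.325 Wfdc17 UMIs per cell in WT, and 1.30 and 1.23 with vehicle. Immature neutrophils, at 1.12 and 1.19 with vehicle, and pro/preNeu, at 1.19 and 1.20, did not exceed B cells, so their Wfdc17 is not shown to lie above background in tumor-bearing mice given vehicle. In WT both stages were above B cells, at 0.426 and 0.392 in immature cells and 0.527 and 0.569 in pro/preNeu. Mature neutrophils, at 0.909 and 0.851 in WT and 14.9 and 15.5 with vehicle, were far above B cells in tumor-bearing mice. Clec4e in immature cells, at 0.744 and 0.715 UMIs per cell with vehicle, was above the 0.208 and 0.224 of B cells, and in monocytes it was 0.518 and 0.459. Clec4d with vehicle, at 0.149 and 0.192 UMIs per cell in immature cells and 0.160 and 0.138 in pro/preNeu, did not exceed the 0.227 and 0.206 of B cells. Arg2 with vehicle was near the B cell level of 0.182 and 0.147 in pro/preNeu, at 0.160 and 0.197, and above it in immature cells, at 0.371 and 0.344. Acod1 in pro/preNeu with vehicle was 0.031 to 0.048 UMIs per cell, where B cells had 0 UMIs. As CPM it was 2.31 and 3.65, and the 0 of B cells allows up to 4.18 and 3.58 CPM. Pro/preNeu hold more UMIs per cell than B cells, so this limit in CPM does not settle the level per cell. With IACS-70654 1 library kept 28 B cells, with 6.68 Wfdc17 UMIs per cell, and the other 16, which were too few to sum. Other classes of that group held 0.742 to 2.61 (T and NK cells), 1.95 to 3.25 (plasmacytoid dendritic cells), 1.73 to 2.91 (progenitors) and 1.02 to 1.12 (basophils and mast cells). The background level of that group therefore differs between classes and is not firm.

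**Figure D2:**
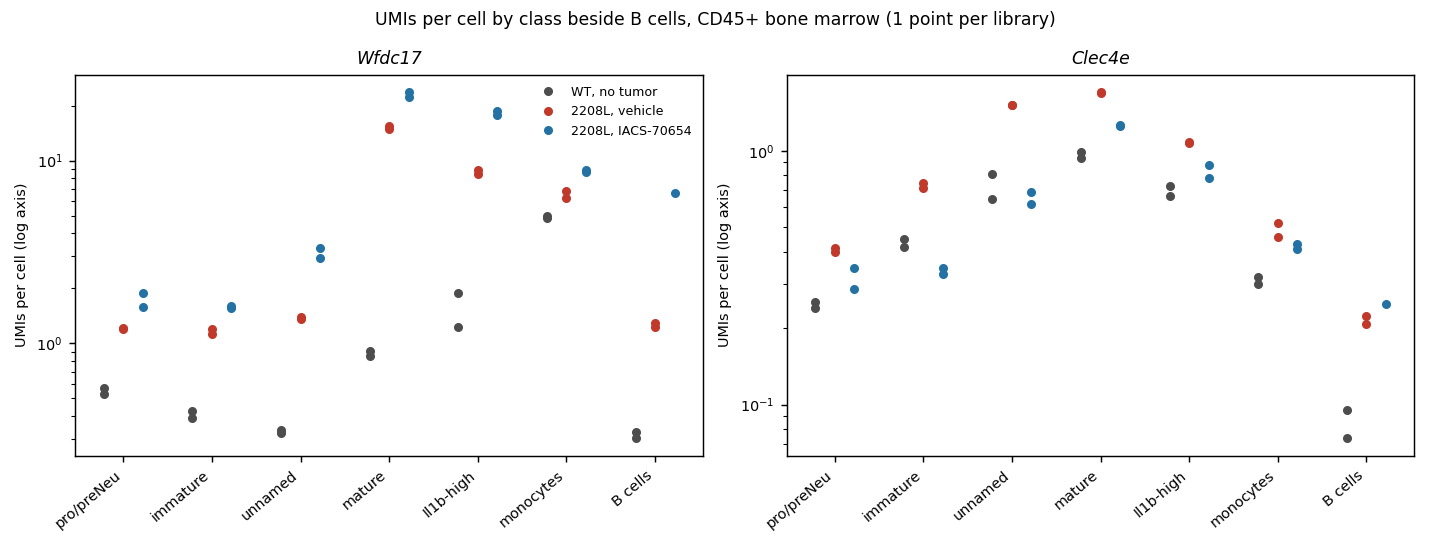
UMIs per cell (y axis, log scale) of Wfdc17 and Clec4e by class (x axis) beside B cells, with 1 point per library and colors for the 3 groups. Wfdc17 in pro/preNeu and immature cells of vehicle-treated mice does not exceed that in their B cells, while mature neutrophils of tumor-bearing mice lie at 14.9 or more.

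The comparison of vehicle-treated 2208L tumor–bearing with untreated WT mice asks what differs in BM of mice with the tumor. These mice also had the transplantation and oral vehicle, which cannot be told apart from the tumor here. Changes "with the tumor" stand for this comparison. Among the 9 genes in mature neutrophils, 4 rose by edgeR's quasi-likelihood test, called where the adjusted p was below 0.01 and the log2 change beyond 0.5 either way. Of all 10906 genes tested, 5.08% rose and 3.96% fell by the same rule. In the 4 named neutrophil stages 0 of the genes were called lower by edgeR or by DESeq2, and at an unadjusted edgeR p under 0.05 the count was 1 in mature cells (Cd84), 1 in Il1b-high cells (Clec4d) and 0 in the earlier stages. Bulk sums do not tell a larger share of expressing cells from more RNA per cell. Shares of cells with a UMI are given beside the sums for some genes and classes only.

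Wfdc17 was the clearest. Its level in mature neutrophils was 294 and 269.9 CPM in WT and 3645 and 3718 CPM with vehicle, a log2 change of 3.85 (SE 0.03, edgeR adjusted p = 5.09e-86). The groups were far apart. Cells of at least 1000 UMIs were thinned to that depth and the others left out. The share of mature neutrophils with a Wfdc17 UMI was then 19.7% and 17.0% in WT and 70.8% and 72.0% with vehicle (37.7%, 38.3%, 89.3% and 88.7% without thinning). The thinned share of B cells with a Wfdc17 UMI was 7.11% to 10.7%, at median depths of 2992 to 3142.5 UMIs.

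Acod1 in mature neutrophils was 59.8 and 45.5 CPM in WT and 109 and 112 CPM with vehicle, a log2 change of 1.21 (SE 0.07, edgeR adjusted p = 7.58e-25). The groups did not overlap, and thinned shares of cells with a UMI were 4.40% and 4.11% against 9.93% and 11.2%. Clec4e was 321 and 298 CPM in WT and 413 and 410.5 CPM with vehicle, a log2 change of 0.55 (SE 0.04, edgeR adjusted p = 1.41e-22). It rose less than Acod1 and is near the size limit of the rule, and with library totals in place of TMM scaling its log2 change of 0.41 was not called.

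Nos2 had 1 and 0 UMIs over all WT mature neutrophils, and 26 and 30 with vehicle. The pooled ratio of vehicle to WT was 25.6 with a 95% counting interval of 4.41 to 1030, since it rests on 1 WT UMI, and the log2 change fitted by edgeR, 4.64 (SE 0.77, adjusted p = 5.8e-07), depends on the prior count. The share of mature neutrophils with a Nos2 UMI was 0.990% and 1.01% with vehicle, and that of B cells was 0.167% or less in WT and vehicle libraries.

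The other 5 genes did not pass in mature neutrophils. Cd84 was 732 and 739 CPM in WT and 532 and 519.7 CPM with vehicle, lower in both tumor-bearing libraries, but its log2 change of -0.34 (SE 0.03) was under the size limit. Arg2 was 511.5 and 504 CPM in WT against 463 and 469 CPM with vehicle, and Clec4d 651 and 641 against 558 and 576 CPM. On the TMM scale of the test these 2 genes had log2 changes of 0.02 and -0.05, so the lower CPM did not exceed the shift shared by all genes. Scaling by library totals alone moves the median log2 change of all genes in mature neutrophils to -0.14 for vehicle against WT and to 0.22 for IACS-70654 against vehicle, so changes are read relative to that median. Ptgs2, at 27.6 and 16.9 CPM in WT and 17.3 and 19.02 CPM with vehicle, and Tgfb1, at 44.6, 38.1, 34.9 and 34.7 CPM, had log2 changes of -0.15 and -0.11 with groups that overlapped or lay close.

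In Il1b-high neutrophils Wfdc17, Acod1 and Clec4e were higher with the tumor, 3 of 8 genes tested, against 2.32% of 7101 genes. DESeq2 called 1 of the 3, Wfdc17, and 4.24% of all genes were lower by edgeR. Wfdc17 was 883 and 610 CPM in WT and 4258 and 4295 CPM with vehicle (log2 change 2.36, SE 0.08). Acod1 was 134 and 111 CPM in WT and 236 CPM in both vehicle libraries (0.80, SE 0.17), and Clec4e 339.7 and 332 against 539 and 524 CPM (0.52, SE 0.11). Clec4d was lower with the tumor, at 991 and 1053 CPM in WT and 809.7 and 802 CPM with vehicle, a log2 change of -0.48 (SE 0.08) just under the size limit. Cd84, at 816 and 859.9 CPM in WT and 1021 and 1033 CPM with vehicle, had a log2 change of 0.15 (SE 0.08, adjusted p = 0.225).

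The earlier stages showed Clec4e and Wfdc17. In immature neutrophils 3 of 8 genes rose, against 2.27% of all genes that rose and 1.43% that fell: Wfdc17 by 1.33, Clec4e by 0.58 and Arg2 by 0.56 on the log2 scale. DESeq2 called 2 of the 3, without Arg2, and thinned cells left Wfdc17 alone. Clec4e was 67.2 and 71.2 CPM in WT and 89.5 and 86.4 CPM with vehicle, and Arg2 35.3 and 33.4 against 44.6 and 41.6 CPM. In pro/preNeu 2 of 8 genes rose, against 2.26% of all genes that rose and 1.79% that fell, with Clec4e at 20.7 and 20.6 CPM in WT and 30.2 and 31.3 CPM with vehicle (0.73, SE 0.11) and Wfdc17 at no more than the B cell level with vehicle (1.14, SE 0.08). Wfdc17 in B cells moved the same way, from 67.6 and 69.8 CPM in WT to 279 and 249.4 CPM with vehicle, and its part in the rise at these stages was not tested.

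In monocytes no change of these genes with the tumor passed the rule, although the log2 change of Clec4e was close to that in mature and Il1b-high neutrophils. Of the 8 genes tested, 0 were called by edgeR or by DESeq2 and 5 had an unadjusted edgeR p under 0.05, while 0.528% of 11174 genes rose and 0.412% fell. Wfdc17 was 423 and 420 CPM in WT and 528 and 502 CPM with vehicle (log2 change 0.28, SE 0.04), and Clec4e 27.8 and 25.4 against 39.9 and 36.9 CPM (0.52, SE 0.13, adjusted p = 0.0197). Ptgs2 had 20 and 13 UMIs in WT and 3 and 6 UMIs with vehicle (-1.68, SE 0.51, adjusted p = 0.0608). Arg2 had group means of 25.6 CPM in WT and 33.0 CPM with vehicle, and Cd84 of 106 and 86.5 CPM. Tgfb1 was 184 and 192 CPM in WT and 182 and 193 CPM with vehicle.

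**Figure D3:**
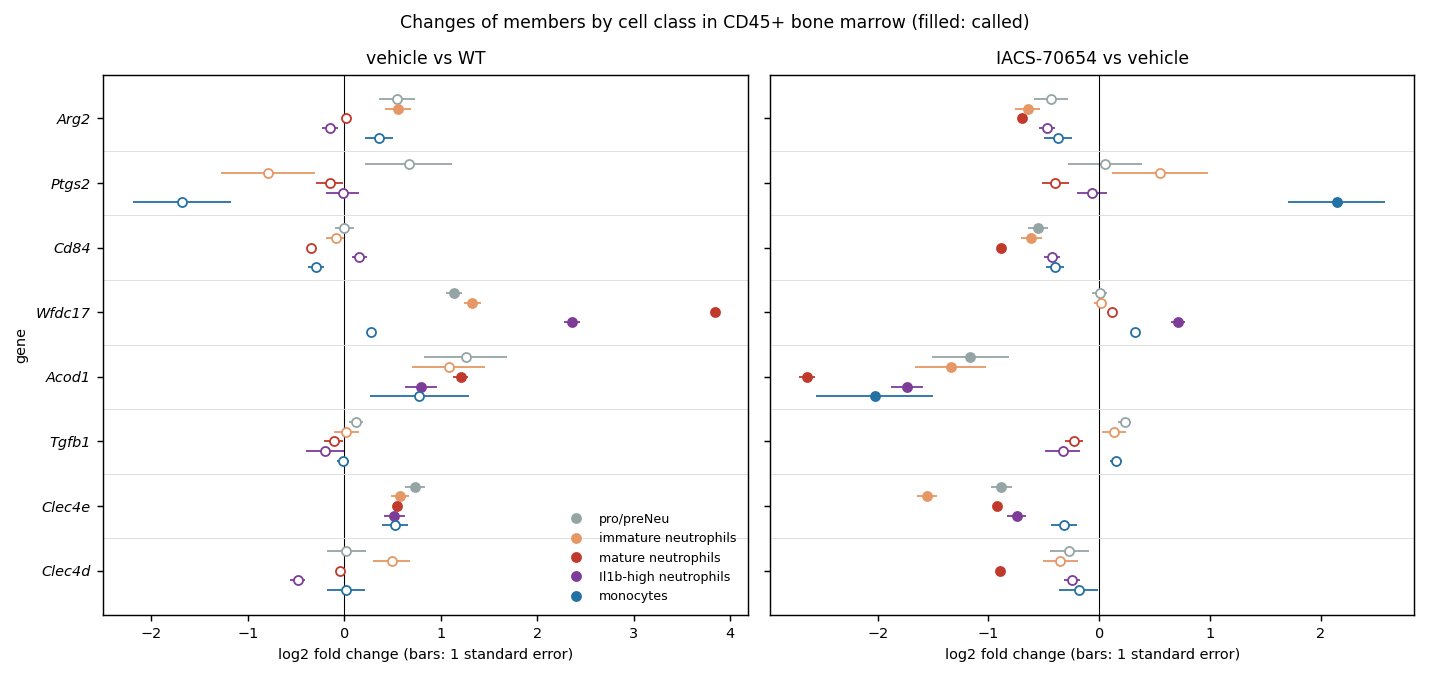
Log2 changes (x axis) of 8 genes (y axis; Nos2, tested in mature neutrophils only, is left out) in 5 classes of CD45+ BM for vehicle against WT and IACS-70654 against vehicle, with bars of 1 standard error and filled symbols where the gene was called. In mature neutrophils Wfdc17 lies at 3.85 with the tumor, and Acod1 at -2.64 with IACS-70654.

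The comparison of IACS-70654 with vehicle asks what the bromodomain inhibitor changes in tumor-bearing mice. Of the 9 genes in mature neutrophils 5 fell, while 9.61% of 10906 genes fell and 11.3% rose. The count of genes called higher was 0 by edgeR and by DESeq2 in pro/preNeu, immature and mature cells, and at an unadjusted edgeR p under 0.05 it was 1 (Tgfb1), 0 and 2 (Nos2 and Wfdc17). Acod1, Clec4e, Clec4d, Cd84 and Arg2 fell, and the groups did not overlap for any of them. Clustered without integration, these 5 were still called and Ptgs2 was added.

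Acod1 in mature neutrophils was 109 and 112 CPM with vehicle and 21.2 and 20.4 CPM with IACS-70654, a log2 change of -2.64 (SE 0.07, edgeR adjusted p = 3.12e-49). Both treated libraries were also below the 59.8 and 45.5 CPM of WT mice. The thinned share of cells with an Acod1 UMI was 9.93% and 11.2% in the vehicle libraries and fell to 1.64% and 1.76% in those given IACS-70654, against 0% to 0.347% of B cells in WT and vehicle libraries. Without thinning the shares were 26.2%, 27.1%, 8.13% and 7.60%.

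Both lectin receptors fell by similar amounts in mature neutrophils. Clec4e was 413 and 410.5 CPM with vehicle and 252 and 257 CPM with IACS-70654 (log2 change -0.92, SE 0.03), and Clec4d 558 and 576 against 362 and 353 CPM (-0.90, SE 0.03). Cd84 was 532 and 519.7 CPM with vehicle and 333 CPM in both IACS-70654 libraries (-0.89, SE 0.03). Arg2 was 463 and 469 CPM with vehicle and 337 and 336 CPM with IACS-70654 (-0.69, SE 0.03). The adjusted p-values of these 4 genes by edgeR ran from 1.9e-43 to 4.28e-35. Thinned shares of cells with a UMI fell too, from 41.8% and 41.9% to 28.4% and 30.3% for Cd84 and from 44.2% and 44.5% to 32.2% and 29.97% for Clec4d.

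Wfdc17 was not lowered by the drug in mature neutrophils, at 3645 and 3718 CPM with vehicle and 4512 and 4821 CPM with IACS-70654, a log2 change of 0.12 (SE 0.02) under the size limit. Nos2 had 26 and 30 UMIs with vehicle and 47 and 55 with IACS-70654 (0.51, SE 0.25, adjusted p = 0.0902), a pooled ratio of 1.66 with a 95% counting interval of 1.19 to 2.35. Ptgs2, at 17.3 and 19.02 against 15.95 and 16.4 CPM, had a log2 change of -0.40 (SE 0.12, adjusted p = 0.0051), under the size limit. Tgfb1 was 34.9 and 34.7 against 33.0 and 36.2 CPM (-0.23, SE 0.08, adjusted p = 0.0187). With library totals in place of TMM, Arg2 had a log2 change of -0.47 and was no longer called, Nos2 one of 0.73 and was called, and the other 4 genes that fell stayed called.

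In Il1b-high neutrophils 2 of 8 genes fell and 1 rose, against 6.01% and 4.31% of all genes. Acod1 was 236 CPM in both vehicle libraries and 95.7 and 57.8 CPM with IACS-70654 (log2 change -1.73, SE 0.14), and Clec4e 539 and 524 against 358 and 311 CPM (-0.75, SE 0.09). Wfdc17 rose from 4258 and 4295 to 7266 and 7414 CPM (0.71, SE 0.06), a call that DESeq2 did not make (adjusted p = 0.0303) and that was lost with stages set by cell scores (0.43) and, at 0.14, with clustering at resolution 0.4 or without integration. Per cell, Il1b-high neutrophils held 8.48 to 8.84 Wfdc17 UMIs with vehicle and 17.8 to 18.7 with IACS-70654. The 28 B cells of 1 IACS-70654 library held 6.68 against 1.30 and 1.23 with vehicle. T and NK cells held 0.905 to 0.955 with vehicle and 0.742 to 2.61 with IACS-70654, and basophils and mast cells 1 to 2.79 and 1.02 to 1.12. Plasmacytoid dendritic cells held 1.66 to 1.71 and 1.95 to 3.25. The part of such background in this rise was not tested. Cd84 at 1021 and 1033 against 812 and 794 CPM, Arg2 at 788 and 794 against 580.4 and 617 CPM, and Clec4d at 809.7 and 802 against 730.1 and 696 CPM were lower in both treated libraries, with log2 changes of -0.43, -0.47 and -0.25 under the size limit. Ptgs2 stayed at 138.5 and 152 CPM with vehicle and 133 and 157 CPM with IACS-70654 (-0.07, SE 0.13).

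Of the 5 classes tested, Clec4e changed most in immature neutrophils, from 89.5 and 86.4 CPM with vehicle to 36.3 and 34.3 CPM with IACS-70654, a log2 change of -1.56 (SE 0.09, edgeR adjusted p = 3.87e-18). In that stage 4 of 8 genes fell, against 6.25% of all genes, while 8.09% rose. DESeq2 called 3 of the 4, without Acod1, and thinned cells left Clec4e alone. Acod1 fell by 1.34, Arg2 by 0.64 and Cd84 by 0.61 on the log2 scale, with Acod1 at 7.66 and 5.34 CPM with vehicle and 2.62 and 3.24 CPM with IACS-70654. In pro/preNeu Acod1, Clec4e and Cd84, 3 of 8 genes, fell, against 10.7% of all genes, while 13% rose (DESeq2 called 2, without Acod1, and thinning left Clec4e), with Clec4e at 30.2 and 31.3 CPM against 18.4 and 22.1 CPM. Tgfb1 in pro/preNeu was 69.8 and 68.9 CPM with vehicle and 96.5 and 102 CPM with IACS-70654, with a log2 change of 0.23 (SE 0.06) after TMM. Markers of monocytes summed to 1216 and 1048 CPM in pro/preNeu with vehicle and to 2623 and 2509 CPM with IACS-70654, over all 10 monocyte markers, and their part in these results was not tested.

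In monocytes the drug raised Ptgs2 and lowered Acod1, 1 of 8 genes each way, against 2.47% and 3.36% of all genes. Ptgs2 had 3 and 6 UMIs with vehicle and 41 and 49 UMIs with IACS-70654, or 0.838 and 1.64 against 5.76 and 5.34 CPM (log2 change 2.14, SE 0.44, adjusted p = 0.000748). These levels were near the 5.09 and 3.03 CPM of WT monocytes. Per cell the treated monocytes held 0.078 and 0.074 Ptgs2 UMIs. This did not exceed the 0.179 of the 28 B cells of 1 IACS-70654 library (5 UMIs) or the 0.091 of its 33 T and NK cells (3 UMIs). The 31 T and NK cells of the other IACS-70654 library held 0 Ptgs2 UMIs, and vehicle B cells 0 and 0.012 per cell. In the IACS-70654 libraries plasmacytoid dendritic cells held 0 to 0.025 per cell (3 UMIs in all), progenitors 0 to 0.013 (1 UMI) and basophils and mast cells 0 to 0.02 (1 UMI). Treated monocytes were thus above some of these classes and not above others, and the part of free RNA in the rise was not tested. Acod1 had 13 UMIs in each vehicle library and 3 and 11 with IACS-70654 (-2.03, SE 0.53, adjusted p = 0.00703), and its call was lost without any 1 of the 4 vehicle and IACS-70654 libraries, at an adjusted p of 0.0116 to 0.0969. The call of Ptgs2 was lost without vehicle replicate 1 only (adjusted p = 0.0364). DESeq2 called 0 of the 8 genes in monocytes, where edgeR had 7 at an unadjusted p under 0.05. Wfdc17, at 528 and 502 against 656 and 626 CPM, had a log2 change of 0.32 (SE 0.04), and Cd84, at 81.2 and 91.8 against 64.0 and 66.1 CPM, one of -0.40 (SE 0.08).

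IACS-70654 was also set beside WT, which shows whether treated tumor-bearing mice came back to the level of mice without tumors. These comparisons share their libraries with those above, so they add no independent values. In mature neutrophils Acod1, Cd84, Clec4d, Arg2 and Ptgs2 were below WT, with log2 changes of -1.43, -1.23, -0.94, -0.68 and -0.55, and Wfdc17 was above it by 3.96. Ptgs2 rests on 1 of the WT libraries (27.6 and 16.9 CPM): without WT replicate 1 its log2 change was -0.14 (edgeR adjusted p = 0.615), and neither DESeq2 nor thinned cells gave the call. Counted with Nos2, 5 of 9 genes were lower and 2 higher by edgeR (4 and 2 by DESeq2), against 10.9% of all genes in either direction. Nos2 had 1 WT UMI against 102 in treated mice, a ratio of 42.6 with a 95% counting interval of 7.48 to 1700. Clec4e, which was higher with vehicle than in WT, was 321 and 298 CPM in WT and 252 and 257 CPM in treated mice, a log2 change of -0.37 (SE 0.04) under the size limit. In Il1b-high neutrophils Acod1, Clec4d and Arg2 were below WT and Wfdc17 above it, against 8.04% and 3.76% of all genes. In immature cells Cd84 and Clec4e were below WT and Wfdc17 above it, against 5.58% and 6.06%, and in pro/preNeu Cd84 was below it and Wfdc17 above it, against 6.8% and 7.12%. Of these 2 calls in pro/preNeu, 1 was left with library totals and 0 without the top 5% of Scrublet scores. Pro/preNeu with IACS-70654 held 1.59 to 1.87 Wfdc17 UMIs per cell. Background classes of that group ran from the 0.742 to 2.61 of T and NK cells to the 6.68 of B cells, so this level is not shown to lie above background. In monocytes Cd84 was below WT (log2 change -0.70) and Wfdc17 above it (0.60), against 3.32% and 2.42%.

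The change with the tumor or the drug was compared between mature neutrophils and monocytes by an interaction test in edgeR over both sums of each library, called at an adjusted p under 0.01. For vehicle against WT 1 of 9 genes differed, against 6.49% of 12315 genes: Wfdc17 changed by 3.56 (SE 0.06) more in mature neutrophils on the log2 scale. For IACS-70654 against vehicle 6 of 9 genes differed, against 18.3% of all genes. Ptgs2 changed by -2.55 (SE 0.43, adjusted p = 7.87e-08) in mature neutrophils relative to monocytes. That difference rests on the monocyte rise, which DESeq2 did not call and which lay above some background classes and not above others. Clec4d, Clec4e, Cd84 and Tgfb1 differed by -0.73, -0.61, -0.50 and -0.39, each lower in mature neutrophils, and Wfdc17 by -0.22. Arg2 at -0.34 (SE 0.13, adjusted p = 0.0343) was not called, but was with RLE size factors (-0.43, adjusted p = 0.00469), and the call of Wfdc17 was lost without the top 5% of Scrublet doublet scores (-0.17, adjusted p = 0.0244). Acod1 at -0.63 (SE 0.53, adjusted p = 0.425) could not be resolved at the UMI counts of monocytes. Monocytes formed 2 clusters that differ in UMIs per cell, and with the cluster of fewer UMIs alone 1 of the 6 differences, that of Ptgs2 (-2.57), was called. Those of Clec4d, Clec4e, Tgfb1, Cd84 and Wfdc17 were then -0.55, -0.41, -0.42, -0.26 and -0.10, so that of Tgfb1 was no smaller without its call.

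Mature neutrophils themselves held 3 clusters, led by Wfdc17 and Ccl6, by Retnlg and Mmp8, and by the interferon-response genes Ifit1 and Rsad2. In each of the 3, Wfdc17, Acod1, Clec4e and Nos2 were higher in both vehicle libraries than in both WT libraries, and Acod1, Clec4e, Clec4d, Cd84 and Arg2 were lower in both IACS-70654 libraries than in both vehicle libraries. Acod1 in the cluster led by Wfdc17 and Ccl6 was 75.5 and 56.7 CPM in WT, 183 and 184 CPM with vehicle and 25.8 and 26.1 CPM with IACS-70654. In the cluster led by Retnlg and Mmp8 it was 29.4 and 22.3, then 41.5 and 45.4, then 13.9 and 14.1 CPM, and in the cluster led by Ifit1 and Rsad2 122 and 90.7, then 178 and 165, then 30.7 and 24.1 CPM. Wfdc17 in the cluster led by Retnlg and Mmp8 went from 115 and 114 CPM in WT to 1466 and 1565 CPM with vehicle and 2086 and 2174 CPM with IACS-70654. Clec4d with the tumor was lower in the cluster led by Wfdc17 and Ccl6, at 1032 and 953 CPM in WT against 803 and 837 CPM with vehicle. It was higher in the cluster led by Retnlg and Mmp8, at 316 and 326 against 356 and 379 CPM, and its groups overlapped in the third, at 705 and 762 against 709.5 and 615 CPM. That difference between clusters was not tested.

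The genes were also set in their pathways, from lists of known members that hold the 9 genes where they belong. The counts stand beside 5.08% of all genes higher and 3.96% lower with the tumor in mature neutrophils, and 11.3% and 9.61% with the drug, so 1 gene in a list of 11 to 18 is near the background. A published MDSC signature, which the study applied and which holds 5 of the 9 genes, had 101 genes tested in mature neutrophils. Of these 35 were higher in tumor-bearing mice than in WT by edgeR, with a median log2 change of 0.30 against -0.00 over all genes. With IACS-70654, 39 fell and 6 rose, with a median of -0.40. Igfbp6, an IGF-binding protein, rose with the tumor by 4.04, the metalloreductase Steap4 by 2.64 and the interferon-induced Ifitm1 by 2.56 on the log2 scale. Ifitm1 was 438 and 488 CPM in WT, 2518 and 2436 CPM with vehicle and 5612 and 5743 CPM with IACS-70654, so, like Wfdc17, it was not lowered. The stefins Stfa3 and Stfa2 rose with the drug by 2.92 and 1.64, while the fatty acid–binding protein Fabp5 fell by 2.44 and the uridine phosphorylase Upp1 fell by 1.58. In Il1b-high neutrophils 19 of 100 signature genes rose and 14 fell with the tumor, against 2.32% and 4.24% of all genes, with a median log2 change of 0.01 against 0.02 over all genes. With the drug 7 rose and 24 fell there, against 4.31% and 6.01%, with a median of -0.21 against 0.01. In monocytes 12 of 101 signature genes rose and 1 fell with the tumor, against 0.528% and 0.412% of all genes, and 7 rose and 11 fell with the drug, against 2.47% and 3.36%.

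Among genes of arginine and nitric oxide metabolism in mature neutrophils, 2 of 11 rose with the tumor, Nos2 and Oat. Ornithine aminotransferase Oat, which acts after arginase, was 7.9 and 6.5 CPM in WT, 19.7 and 18.7 CPM with vehicle and 10.2 and 9.9 CPM with IACS-70654 (log2 changes 1.54 and -1.15). With the drug Oat and Arg2 fell and the argininosuccinate lyase Asl rose by 0.51. In the eicosanoid list around Ptgs2, 1 of 13 genes rose and 3 fell with the tumor, and 1 rose and 3 fell with the drug. Alox5ap, the partner of 5-lipoxygenase, rose with the tumor by 0.73, whereas thromboxane synthase Tbxas1 was 82.5 and 70.1 CPM in WT, 29.9 and 29.6 CPM with vehicle and 17.9 and 17.8 CPM with IACS-70654. The phospholipase Pla2g4a fell by 0.89 with the tumor and rose by 0.84 with the drug, and Alox5 fell by 0.59 with the drug. Ptgs2 itself passed in neither of these 2 comparisons.

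Of 18 genes of itaconate and Toll-like receptor signaling, 5 rose with the tumor in mature neutrophils, and 5 fell and 1 rose with the drug. Acod1, Cd14, Il1b and Myd88 rose by 1.21, 1.53, 1.20 and 0.84 with the tumor. Cd14, a co-receptor for endotoxin, went on rising with the drug, from 38.3 and 34.7 to 69.8 and 66.3 CPM (log2 change 0.68), in the direction opposite to Acod1. The NF-kB regulators Tnfaip3 and Relb fell by 0.88 and 0.86 with the drug. Of 18 genes of the C-type lectin and Syk pathway, 1 rose with the tumor (Clec4e) and 4 fell with the drug, Clec4e, Clec4d and the sparsely detected Clec9a and Clec1b, which had at most 3.25 CPM in each library. Among 5 SLAM genes tested, Cd244a rose with the tumor by 2.39 and fell with the drug by 1.40, at 8.2 and 9.1, then 41.4 and 40.7, then 16.5 and 19.6 CPM, while Cd84 only fell and Cd48 rose by 1.12 with the drug.

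Of 4 WAP genes tested in mature neutrophils 3 rose with the tumor, Wfdc17, Wfdc18 by 3.28 and Wfdc21 by 0.62. With the drug the protease inhibitor Slpi fell by 0.60 and the other 3 were not called. Wfdc18 was 0.7 and 2.1 CPM in WT, 11.8 and 12.3 CPM with vehicle and 11.2 and 13.1 CPM with IACS-70654. Of 12 genes of the TGF-β pathway 2 fell with the tumor and 1 rose with the drug. Thbs1, whose product thrombospondin-1 activates latent TGF-β, was 67.7 and 58.3 CPM in WT, 2.9 and 2.2 CPM with vehicle and 45.2 and 42.5 CPM with IACS-70654, and the signal transducer Smad3 fell by 0.66 with the tumor. In a list of 16 other genes tied to MDSCs 3 rose and 1 fell with the tumor, and 1 rose and 6 fell with the drug. The chemokine-like Prok2 rose by 2.32 and then fell by 1.24, and the interleukin-4 receptor Il4ra rose by 1.67 with the tumor. Nt5e, which makes adenosine, fell in both comparisons by 0.66 and 0.78, and S100a9 fell by 0.63 with the drug.

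Over 114 sums of class and library in BM and tumors and 14643 genes, the genes whose level on the log2(CPM + 10) scale was most like each member were found by Pearson's r. Arg2 was most like the metal transporter Slc11a1 (r = 0.93), Ptgs2 like Il1b (0.93), Ccrl2 (0.91) and Cxcl2 (0.89), and Acod1 like Entpd3 (0.87) and Hcar2 (0.85). Clec4e was most like Tarm1 (0.91), Ppp1r3b (0.91) and C5ar1 (0.89), and Clec4d like Ptgs2os2 (0.89), Cyp4f18 (0.88) and Clec4e (0.88). The values for Cd84 with Lcp1, Wfdc17 with Gm5150, Tgfb1 with Rgs10 and Nos2 with Gm14010 were 0.83, 0.84, 0.87 and 0.76. These sums share libraries, depth and cell classes, so r is a description over points that are not independent. Il1b and Cxcl2 are also among the markers that named the Il1b-high class, so their likeness to Ptgs2 is partly set by the classes.

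In 2208L tumors the genes were followed in tumor-associated neutrophils (TANs), tumor-associated macrophages (TAMs) and monocytes, each class named from its markers. There is 1 library per condition and so no test: intervals are exact 95% intervals for counting error only, and a ratio past 1.5-fold is described against all genes with at least 50 UMIs in the pair. TANs numbered 469 with vehicle, 250 with IACS-70654, 556 with anti–PD-1 and 309 with both, with median UMIs of 1215, 1351, 1313.5 and 1202. TAMs numbered 637, 2092, 480 and 1913, with medians of 6413, 6272, 6163.5 and 5949 UMIs. TAMs came from 5 clusters that the conditions filled unequally: 2 clusters led by Apoe and C1qa held 182 and 80 of 637 cells with vehicle and 951 and 509 of 2092 with IACS-70654, the one led by Mmp12 and Ms4a7 217 and 388, and the one led by Ccl8 and Saa3 103 and 149. The part of this makeup in the TAM ratios was not tested. A cluster led by Mgl2 and Ccl17 (75, 510, 70 and 563 cells) and one led by Cxcl10 and Rsad2 (35, 277, 47 and 293 cells) scored highest for macrophage markers, but other genes led them, so they stayed unnamed and outside the TAMs.

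TANs had the highest CPM of Acod1, Ptgs2, Clec4e, Clec4d, Arg2, Cd84 and Wfdc17 among the 3 classes in each of the 4 libraries. TANs held far fewer UMIs per cell than TAMs and monocytes, so the order in UMIs per cell can differ. With vehicle, the depths given above put Wfdc17 and Cd84 lower per cell in TANs than in TAMs, so for these genes the order in CPM is not the order per cell. Acod1 was 1554 CPM in TANs with vehicle against 6.1 CPM in TAMs and 6.3 CPM in monocytes. Ptgs2 was 929 CPM in TANs against 35.8 CPM in TAMs and 100.3 CPM in monocytes. In marrow the highest of these values, in Il1b-high neutrophils of tumor-bearing mice, were 236 CPM for Acod1 and 157 CPM for Ptgs2. The study digested tumors with collagenase but not marrow, and the files came from different Cell Ranger versions. Tissue and preparation therefore cannot be told apart in this comparison. Wfdc17 was nearer in the 2 main classes, at 1501 CPM in TANs and 1096 CPM in TAMs. Tgfb1 had the opposite order, at 143 CPM in TANs, 220.4 CPM in TAMs and 259 CPM in monocytes with vehicle.

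**Figure D4:**
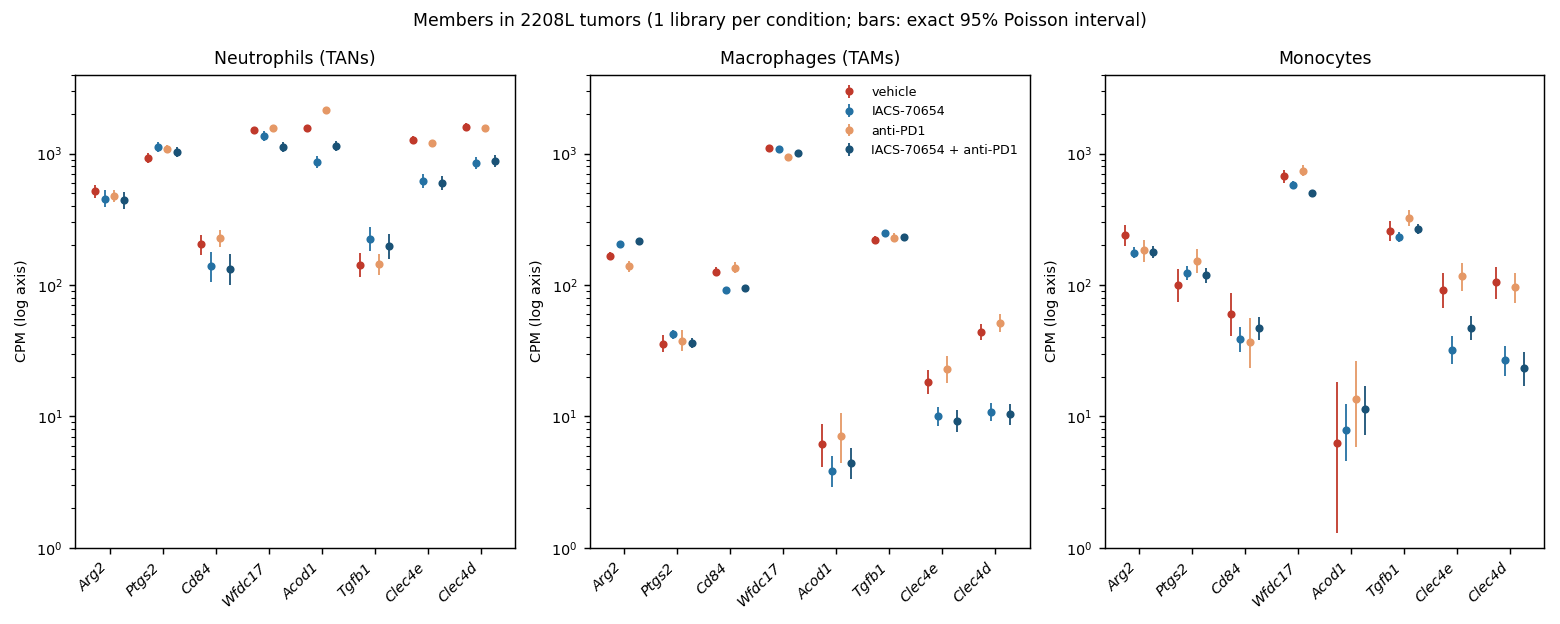
Levels (y axis, CPM on a log scale) of 8 genes (x axis; Nos2 had few UMIs and is left out) in TANs, TAMs and monocytes of 2208L tumors, with 1 point per library, colors for the 4 conditions and bars for exact 95% Poisson intervals. In TANs Clec4e lies at 1261 CPM with vehicle and 619 CPM with IACS-70654, and in TAMs Clec4d lies at 44.2 and 10.8 CPM.

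In TANs, IACS-70654 went with lower Clec4e, Clec4d and Acod1. Clec4e was 1261 CPM with vehicle and 619 CPM with the drug, a log2 ratio of -1.03 (95% interval -1.23 to -0.82). Clec4d was 1594 and 850.1 CPM (-0.91, -1.09 to -0.73), and Acod1 1554 and 865 CPM (-0.85, -1.03 to -0.67). Past 1.5-fold, 3 of 8 genes were lower and 1 higher, against 10.5% and 12.6% of 3203 genes. The gene past that size upward was Tgfb1, at 143 and 223 CPM (0.65, 0.21 to 1.09). Cd84, at 203 and 138 CPM, had a log2 ratio of -0.56 (-1.03 to -0.09) just inside 1.5-fold. Unlike the BM changes, tumor ratios use class totals without TMM, whose factors in TANs were 0.957 with vehicle and 1.05 with IACS-70654. Scaling by them lowers each of these ratios. It brings Tgfb1 inside the 1.5-fold limit and takes Cd84 past it, so the rise of Tgfb1 past that size holds only without TMM. Ptgs2 was 929 and 1122 CPM (0.27, 0.09 to 0.45), and Arg2 (-0.19, -0.46 to 0.08) and Wfdc17 (-0.14, -0.29 to 0.01) had intervals that reach both sides of 0.

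TANs with at least 1000 UMIs were thinned to that depth, and those with fewer were left out. Of the TANs kept, 56.7% with vehicle and 38.7% with IACS-70654 had a Clec4e UMI, and 64.2% and 43.6% a Clec4d UMI. The share with an Acod1 UMI was 44.2% and 36.3% with these 2 treatments, against 1.06% and 2.08% of T and NK cells. Macrophage markers in TANs summed to 5652 CPM with vehicle and 10971 CPM with IACS-70654, and neutrophil markers to 35008 and 27389 CPM, and their part in the ratios was not tested.

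With the combination Clec4e, Clec4d and Cd84 were lower in TANs, and no ratio of the combination to IACS-70654 was taken. Clec4e was 601 CPM, with log2 ratios of -1.07 (-1.28 to -0.86) to vehicle and, with an interval of -1.21 to -0.80, to anti–PD-1. Clec4d was 883 CPM, with ratios of -0.85 and -0.82, and Cd84 132 CPM, with ratios of -0.63 and -0.79. These 3 genes were past 1.5-fold lower than vehicle, against 10.2% of genes lower and 13.3% higher, and with Acod1 they were 4 of 8 lower than anti–PD-1, against 10.5% lower and 12.9% higher. Acod1 was 1149 CPM, a log2 ratio of -0.44 (-0.59 to -0.28) to vehicle and -0.90 (-1.05 to -0.76) to anti–PD-1. Macrophage markers in TANs summed to 2967 CPM with anti–PD-1 and 5043 CPM with the combination.

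Anti–PD-1 alone left most of the genes near vehicle in TANs, with 0 of 9 past 1.5-fold, against 3.81% of genes lower and 5.06% higher. Acod1, at 2151 CPM, had a log2 ratio of 0.47 to vehicle (0.35 to 0.58), and Ptgs2, at 1094 CPM, one of 0.24 (0.08 to 0.39). The ratios of the other 7 genes lay between -0.12 and 0.16. Nos2 had 27 UMIs in TANs with vehicle, 38 with anti–PD-1, 5 with IACS-70654 and 0 with the combination. The exact 95% intervals of the combination had upper limits of -2.22 to vehicle and -2.36 to anti–PD-1 on the log2 scale, and no lower limit. The ratio of IACS-70654 to vehicle was -1.83 (-3.57 to -0.44) on the log2 scale, the direction opposite to that of mature BM neutrophils, where Nos2 stood at 3.01 and 2.81 CPM with vehicle and 4.96 and 4.71 CPM with IACS-70654.

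In the cells named TAMs the 2 lectin receptors were lower with the drug as well. Clec4d was 44.2 CPM with vehicle, 10.8 with IACS-70654, 51.1 with anti–PD-1 and 10.4 with both, a log2 ratio of -2.04 (-2.35 to -1.73) for IACS-70654 to vehicle. Clec4e was 18.3, 10.0, 23.0 and 9.2 CPM (-0.87, -1.27 to -0.47). With Acod1, whose interval reaches 0, these were 3 of 8 genes past 1.5-fold lower, against 7.12% of genes lower and 5.94% higher. After thinning to 1000 UMIs, which leaves fewer genes with 50 UMIs, 1 gene was counted; Clec4d had a log2 ratio of -1.84 and Clec4e one of -1.23, and Acod1 turned to 0.29. In the cluster led by Mgl2 and Ccl17 Clec4d was also lower with IACS-70654 (-1.35, -2.04 to -0.60), but Clec4e was higher past 1.5-fold, from 7 UMIs or 17.3 CPM with vehicle to 95 UMIs or 29.9 CPM (0.79, -0.31 to 2.14). In the cluster led by Cxcl10 and Rsad2 Clec4e had 11 and 27 UMIs, or 50.1 and 13.9 CPM. T and NK cells, which should lack both receptors, had 0.154, 0.073, 0.197 and 0.091 Clec4d UMIs per cell in the same order of conditions. TAMs had 0.330, 0.074, 0.333 and 0.067, so per cell Clec4d in TAMs was above T and NK cells with vehicle and anti–PD-1, and at their level in both libraries with IACS-70654. As CPM, however, T and NK cells had 44.4, 13.4, 60.5 and 20.8 CPM, which is as high as TAMs in each library. Tumor B cells were below TAMs, at 22.9 CPM with vehicle (3 UMIs) and 29.9 CPM with anti–PD-1 (4 UMIs). With so few UMIs and classes that differ, background cannot be told apart from expression in TAMs. Clec4e in TAMs, at 0.137 UMIs per cell with vehicle, was above the 0.048 of T and NK cells, and at 0.068 with IACS-70654 it was at their 0.067. Acod1 in TAMs, at 0.046 and 0.026, did not exceed the 0.058 and 0.087 of T and NK cells, so the Acod1 ratio counted above is not shown to lie above background. TANs, which could shed this RNA, were 469 of 1974 kept cells with vehicle and 250 of 4739 with IACS-70654. If the tumor samples were captured together, free RNA could come from TANs of any condition. The part of free RNA in the TAM ratios was not tested.

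The other genes moved less in TAMs. Cd84 was 126 CPM with vehicle and 91.1 CPM with IACS-70654 (-0.47, -0.61 to -0.33), and 135 and 94.1 CPM with anti–PD-1 and with both. Arg2 was 166 and 204 CPM with vehicle and IACS-70654 (0.30, 0.18 to 0.41), and 139 and 215 CPM with anti–PD-1 and with both, a log2 ratio of 0.63 (0.48 to 0.78). Past 1.5-fold in TAMs, 0 genes differed between anti–PD-1 and vehicle, against 1.92% of genes lower and 2.92% higher. The combination had both lectin receptors lower than vehicle, against 6.55% of genes lower and 5.35% higher, and both of them and Acod1 lower and Arg2 higher than anti–PD-1, against 8.24% and 6.88%. Wfdc17, at 1096 and 1084 CPM, was level (-0.02, -0.06 to 0.03), and Tgfb1, at 220.4 and 251 CPM, had a log2 ratio of 0.19.

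Tumor monocytes numbered 119, 456, 142 and 402 cells. Their Clec4d was 105 CPM with vehicle, 26.6 with IACS-70654, 95.9 with anti–PD-1 and 23.2 with both, a log2 ratio of -1.97 (-2.54 to -1.40) for IACS-70654 to vehicle. Clec4e was 92.0, 32.2, 116 and 47.4 CPM (-1.52, -2.08 to -0.94). These and Cd84, at 60.6 and 38.6 CPM (-0.65, -1.28 to 0.01), were 3 of 7 genes past 1.5-fold lower, against 7.94% of genes lower and 12.3% higher. After thinning to 1000 UMIs 0 genes were counted, and Clec4d and Clec4e had log2 ratios of -1.22 and -1.11. The combination had Clec4d and Clec4e lower than vehicle, against 7.43% of genes lower and 12.7% higher, and lower than anti–PD-1, against 9.37% and 9.18%. With anti–PD-1 alone Cd84 was lower and Ptgs2 higher than vehicle past 1.5-fold, against 3.2% and 7.07%. Per cell, Clec4d in monocytes was 0.420 UMIs with vehicle and 0.127 with IACS-70654, above the 0.154 and 0.073 of T and NK cells. Neutrophil markers in monocytes summed to 656 CPM with vehicle, 287 with IACS-70654, 988 with anti–PD-1 and 1086 with both, and their part in these ratios was not tested. Arg2, at 240.4 and 176 CPM, Ptgs2, at 100.3 and 123 CPM, and Wfdc17, at 671 and 582 CPM, stayed within 1.5-fold of vehicle. In tumor cells Nos2 had 0 UMIs with vehicle, 60 with IACS-70654, 4 with anti–PD-1 and 54 with both, from 349, 817, 423 and 1220 cells, or 0, 4.84, 0.61 and 2.98 CPM, where the 0 allows up to 0.576 CPM. In the same order, T and NK cells had 0, 0, 1 and 0 Nos2 UMIs. Tumor cells, too, sat in different clusters by condition: one led by Igfbp5 and Lcn2 held 152 of the cells with vehicle, 8 with IACS-70654, 163 with anti–PD-1 and 19 with both, and one led by Met and Wfdc2 held 31, 259, 45 and 366. The part of this in the Nos2 counts was not tested.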

How the data were processed

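Single cells of CD45+ BM and 2208L tumors were profiled by 10x Genomics 3′ RNA-seq with CellPlex tags. The authors deposited filtered matrices of UMI counts per gene and cell, made with Cell Ranger (7.2.0 for BM and 7.1.0 for tumors, per the file headers), and the submitters' processing notes name Seurat and mm10. No deposited annotation of cells was used.

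Cells with 200 to 6000 genes and at most 10% mitochondrial UMIs were kept. The 9 genes were left out of clustering (scanpy 1.11.5, leidenalg 0.10.2; 2000 variable genes, 30 components, 20 neighbors, resolution 1, and 0.8 for neutrophils integrated over libraries), and classes were named from markers. Scrublet's automatic threshold called under 0.5% of cells in 5 of 6 BM libraries, so doublets were not removed in the main result, and removal of the top 5% of scores was an alternative. Counts were summed per class and library, for classes of at least 20 cells. BM sums were tested with edgeR 4.0.16 (quasi-likelihood, filterByExpr, TMM, all 6 libraries, Benjamini-Hochberg over all genes tested) in R 4.3.3, with calls made below an adjusted p of 0.01 and beyond a log2 change of 0.5. The mature-to-monocyte difference had library as a block and no size limit. DESeq2 1.42.0, library totals, thinned cells, stricter filters and other clusterings were alternatives. Thinning to 1000 UMIs left out cells with fewer UMIs. On simulated data for vehicle against WT in mature neutrophils (10906 genes), 84.8% of genes changed 4-fold and 47.8% of those changed 1.5-fold were recovered. For the same comparison these shares were 74.2% and 8.96% in Il1b-high neutrophils (7101 genes) and 90.9% and 34.3% in monocytes (11174 genes), so small changes could be missed there. Same-numbered libraries did not deviate together (correlations -0.0464 to 0.0465), so they were not paired. Tumor ratios have exact conditional binomial intervals. PCR duplicates are removed by UMIs, and intervals cover counting error only.

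The genes and lists were chosen with earlier results of these data known. All 9 genes are named, at most 4 called genes per list and comparison with the largest change, and the 3 genes most like each member. Other genes named stand for markers. The 6 c-Kit+ libraries were not analysed here, nor were BC100530, BC117090 and Clec7a of the lists.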

Additional observations from a re-analysis of the deposited data

Results flagged for a closer look

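The change of a gene differed between mature neutrophils and monocytes, by an edgeR interaction test, in 7 cases. With the tumor, Wfdc17 changed by 3.56 more in mature neutrophils on the log2 scale. With IACS-70654 against vehicle, the change in mature neutrophils minus that in monocytes was -2.55 for Ptgs2, -0.73 for Clec4d, -0.61 for Clec4e, -0.50 for Cd84, -0.39 for Tgfb1 and -0.22 for Wfdc17. Those of Tgfb1 and Wfdc17 were each lost without IACS-70654 replicate 1, that of Tgfb1 also without vehicle replicate 1 and that of Wfdc17 without vehicle replicate 2 or without the top 5% of Scrublet scores. Arg2, at -0.34, was called with RLE size factors. Ptgs2 rests on 3 and 6 UMIs in vehicle monocytes, and its rise in monocytes was not called by DESeq2. Treated monocytes were above some background classes in Ptgs2 per cell and not above others. The part of depth and of the mix of monocyte clusters in these differences was not tested beyond the fewer-UMI cluster, where 1 of the 6 differences for IACS-70654 was called, although that of Tgfb1, at -0.42, and that of Clec4d, at -0.55, stayed of similar size.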

How the results depend on the processing

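Counts of the 9 genes called in mature neutrophils stayed within 1.5 times under the alternatives run. Of the summary values, mainly such counts, 308 did so and 38 did not. Of the single log2 changes, ratios and differences, 2520 were labeled the same, 143 moved, 85 weaker, 40 stronger and 1 reversed. In pro/preNeu, vehicle against WT had 2 called genes and 4 with no filter, IACS-70654 against vehicle 3 and 5 with stages set by cell scores, and IACS-70654 against WT 2, then 1 with library totals and 0 without the top 5% of Scrublet scores. In immature cells vehicle against WT had 3 and 1 with library totals or without integration, IACS-70654 against vehicle 4 and 2 with library totals, and IACS-70654 against WT 3 and 1 with stages by score. In Il1b-high cells they were 3 and 1 by DESeq2, 3 and 5 at resolution 0.4 or without integration, and 4 and 7 without integration. In monocytes IACS-70654 against vehicle had 2, 0 by DESeq2 and 1 with the stricter filter, and against WT 2 and 1 without the top scores. Thinning to 1000 UMIs left 1 in each comparison of pro/preNeu, 1 for vehicle against WT and 1 for IACS-70654 against vehicle in immature cells, and in monocytes 0 against vehicle and 1 against WT. Differences between mature neutrophils and monocytes went from 6 to 1 with the fewer-UMI monocytes. In tumors thinning took TAMs from 3 to 1, from 2 to 1 and from 4 to 2 genes past 1.5-fold for IACS-70654, the combination and the combination against anti–PD-1, and monocytes from 3 to 0, from 2 to 1 and from 2 to 1. For anti–PD-1 monocytes went from 2 to 1 by TMM and 0 when thinned. Thinned Acod1 in TAMs with IACS-70654 turned to 0.29. Resolution 0.5 gave no tumor monocyte class. The cause of these moves was not tested.

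Leaving out 1 library gave 2 to 2, 1 to 4 and 1 to 2 called genes in pro/preNeu for vehicle against WT, IACS-70654 against vehicle and IACS-70654 against WT. In the same order it gave 2 to 3, 3 to 4 and 3 to 3 in immature, 4 to 4, 5 to 5 and 6 to 7 in mature, 1 to 3, 3 to 4 and 3 to 4 in Il1b-high neutrophils, and 0 to 0, 0 to 2 and 2 to 2 in monocytes. Differences between classes ranged from 1 to 1 and 4 to 6. The replicate block, from numbers that do not pair the libraries, changed no count of the 9 genes, which in mature neutrophils was 4, 5 and 7.

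Counts over all genes moved more. DESeq2 gave 272 for 492 (pro/preNeu, vehicle against WT), 165, 664 and 619 for 359, 1389 and 1128 in immature, 1312 and 1578 for 2281 and 2377 in mature (both with IACS-70654), 225, 245 and 448 for 466, 733 and 838 in Il1b-high cells, and 51, 373 and 374 for 105, 651 and 641 in monocytes. Thinning gave 61, 710 and 404 for 492, 2880 and 1691 in pro/preNeu, 72, 279 and 255 in immature, 1195 and 1418 in mature, 264, 395 and 441 in Il1b-high cells and 18, 149 and 172 in monocytes. Library totals gave 808 in pro/preNeu and 706 in immature cells for vehicle against WT. Stages by score gave 867 and 2001 in immature cells against vehicle-to-WT and IACS-70654-to-WT counts of 359 and 1128, resolution 0.4 gave 901, 1834 and 1980 in Il1b-high cells, and no integration 302 and 1671. Fewer-UMI monocytes gave 336 and 1191 differences for 799 and 2255. In mature neutrophils library totals moved the split of higher and lower genes from 1233 and 1048 to 2362 and 527 for IACS-70654 against vehicle, from 554 and 432 to 376 and 791 for vehicle against WT, and from 1192 and 1185 to 1562 and 916 for IACS-70654 against WT, and Clec4e lost its call with the tumor at 0.41. Depth limits Nos2, and Acod1 and Ptgs2 outside late neutrophils.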
